A study of Mus musculus with 11 samples.

Results

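The BL6 and the CAST copy of each autosomal gene were compared within the hippocampus of 6 young F1 hybrid mice, by counting the RNA reads that sequence differences between the strains assign to 1 copy or the other. The members are the autosomal genes with at least 50 assigned reads, both copies summed, in every young mouse. Of the 55401 genes in the allelic table, 17050 met this rule. The 6 mice are part of a series of 11 female F1 mice, none treated and none carrying an engineered allele, which asked how imprinting and X inactivation hold up in the aging brain. Each young mouse was 8 to 9 weeks old. The young mice came from reciprocal crosses, 3 with a BL6 mother and a CAST father and 3 with a CAST mother and a BL6 father. The 5 old F1 mice, 101 to 104 weeks of age and 3 of them with a BL6 mother, were used only to ask whether the strain differences held at another age.

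BL6 is the classical inbred laboratory strain C57BL/6, and CAST is a wild-derived inbred strain of the subspecies Mus musculus castaneus that differs from it at many positions of the genome. In an F1 hybrid both copies of a gene lie in the same nuclei and meet the same transcription factors, hormones and dissection, so a difference in RNA between them is of the kind called cis-regulatory: it travels with the chromosome that carries it. Promoter and enhancer variants, splice and polyadenylation variants, RNA stability and gene copy number can all act in this way. Unequal assignment or alignment of reads can look the same in the counts, because the reference genome is that of BL6.

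Each of the 6 libraries came from 1 mouse. Total counts ran from 111 to 215 M, and reads assigned to a copy from 39.7 to 76.9 M, or 35.1% to 35.9% of the total. No pair of young libraries was alike within sampling noise, as the lowest chi-square per gene was 80.8. The tissue label was checked with markers of the hippocampus. Prox1 of dentate granule cells stood at 59.6 to 195 CPM (counts per M counts of the library) and Fibcd1 of CA1 pyramidal cells at 43.6 to 140 CPM. Drd2, a receptor of striatal neurons, stood at 76.4 and 64.1 CPM in young replicates 2 and 6 against 1.20 to 7.50 in the other mice, and results are given without them where that matters. Prkcd and Tcf7l2, which are markers of thalamic neurons, stood at 229.6 and 95.3 CPM in replicate 1 against at most 23.9 and 14.4 CPM in the other mice. The column named i4fb was read as the BL6 copy because the imprinted gene Peg3, active on the copy from the father, had 0.0220% to 0.0637% of its reads there in mice with a BL6 mother and 99.8% or more in mice with a CAST mother.

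Most genes measured differed between the strains, but few by much. Of 17050 genes, 10879 were called, that is 63.8% had an adjusted p under 0.05 in edgeR's quasi-likelihood test with terms for mouse and for the parent of the copy. The BL6 copy was ahead in 6889 of these and the CAST copy in 3990. A large difference, called and at least 2-fold (an absolute log2 ratio of 1 or more), was found for 1074 genes, 6.30% of those tested, 676 with BL6 ahead and 398 with CAST ahead. The split of the calls rests on how the columns are scaled. With the library size of a mouse used for both of its columns, 63.3% of called genes had BL6 ahead, whereas normalising each column on its own by TMM gave 48.8% and by median-of-ratios size factors 49.0%. The large differences moved less, to 605 BL6 and 444 CAST under TMM. Without young replicates 2 and 6, 718 large differences favoured BL6 and 442 favoured CAST.

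The middle of the distribution leaned towards BL6 by a small and even amount in every mouse. The median gene had 51.1% of its assigned reads from BL6 in the lowest mouse, 51.1% in the median mouse and 51.2% in the highest. The mean of the 6 medians was 51.1% ± 0.0459 (SD, n = 6), above 50% in 6 of 6 mice (two-sided exact sign-flip permutation test, p = 0.03125, the smallest that 6 mice allow). On the log2 scale the median over all genes was 0.07. Whether this lean comes from the RNA or from reads that align better to a BL6 reference was not tested.

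**Figure D1:**
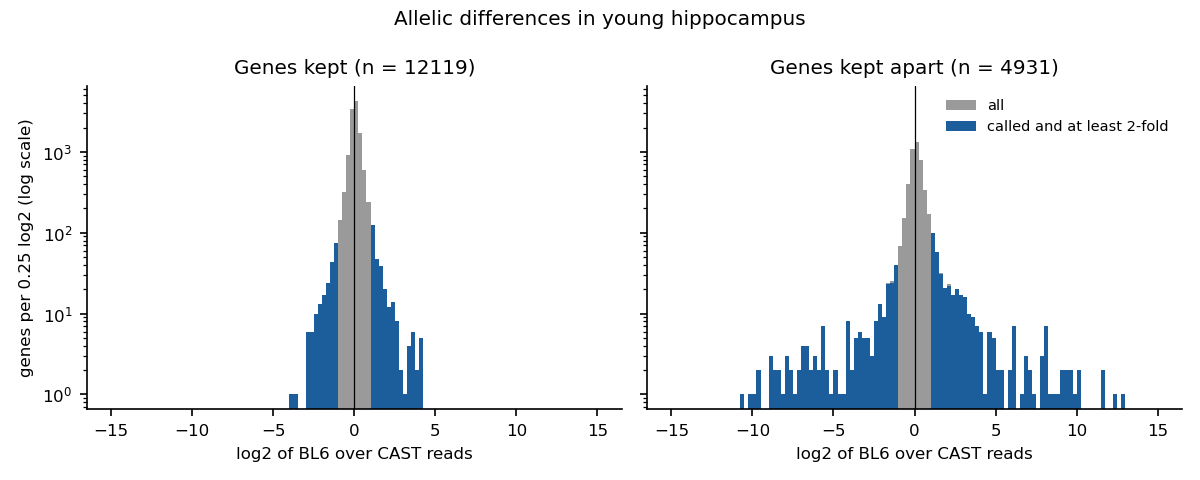
Number of genes (log scale) by log2 ratio of BL6 over CAST reads in the 6 young mice, for the 12119 genes kept (left) and the 4931 kept apart (right); gray bars are all genes and blue bars those called and at least 2-fold. The kept genes reach 4.19 on the BL6 side, and the genes kept apart reach beyond that on either side.

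The kinds of gene whose counts could reflect how reads were assigned were kept apart: 4931 genes in all, and left 12119 genes for the account by function. The first kind was read almost wholly from 1 copy, with a mean BL6 share above 95% or below 5%, and held 108 genes, 58 of BL6 and 50 of CAST. The next was of 654 genes with under 10% or over 100% of their total count assigned to a copy. A further 4327 were predicted genes, unnamed transcripts or pseudogenes, of which 12.4% had a large difference, 345 with BL6 ahead and 191 with CAST ahead. The last were 89 genes with a called and at least 2-fold effect of the parent of origin, as imprinted genes have. Of these, 36 also showed a large strain difference, 35 with BL6 ahead. For a gene read almost wholly from 1 parent's copy, the strain ratio rests on few reads of the other copy. The part of this in that split was not tested. By annotated type, large differences were found in 34.8% of 388 processed pseudogenes, 20.6% of 432 long intergenic RNAs and 4.13% of 12939 protein-coding genes. The rest of the account is on the 12119 genes kept.

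Among the kept genes, 5033 were called with BL6 ahead (41.5%) and 3063 with CAST ahead (25.3%), and 4023 were not called. Large differences favoured BL6 in 286 genes (2.36%) and CAST in 197 (1.63%), together 483 genes or 3.99%. Differences of under 0.25 on the log2 scale made up 63.4% of the kept genes. Between 2- and 4-fold lay 392 genes, between a log2 of 2 and 3 lay 71, and 20 were at 3 or more, 18 of them with BL6 ahead. The same copy was ahead in all 6 mice for 483 of the 483 genes with a large difference. Fitted within the 3 mice with a BL6 mother alone, and within the 3 with a CAST mother alone, all 483 kept their direction and were called. The 483 were chosen as large from these same 6 mice, so neither result is a separate test.

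The largest differences in favour of BL6 were found in genes of unlike function, from an antioxidant enzyme to a class I histocompatibility gene. They are the 12 largest among kept genes with a mean of at least 200 assigned reads per mouse. Eps8l3, of a family of adaptor proteins that link receptors to actin (chromosome 3, 107877229 to 107892900, plus strand), had a BL6 share of 93.0% in the lowest mouse, 95.2% in the median and 95.7% in the highest. Its log2 ratio was 4.19 and its SE 0.07 (adjusted p in edgeR = 2.5e-14), or 18.3-fold, and 42.4% of its exon bases lie within exons of another gene. Pon2, paraoxonase 2, a lactonase that protects against oxidation (chromosome 6, 5264147 to 5298455, minus strand), had shares of 93.6%, 94.6% and 95.9%, with a log2 ratio of 4.18. H2-K1, a classical class I molecule that shows peptides to T cells (chromosome 17, 33996017 to 34000347, minus strand), had shares of 93.2%, 94.7% and 96.3%, and a log2 ratio of 4.11. No mouse was near an even share for any of these genes, and they lie just inside the mean share of 95% beyond which genes were kept apart.

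Tmc3, of the transmembrane channel-like family, had a BL6 share of 92.9% to 96.0% and a log2 ratio of 4.17, with 43.9% of its exon bases shared with another gene. Kcng4, a silent subunit that modifies voltage-gated potassium channels (chromosome 8, 119623854 to 119635680, minus strand), had a share of 85.0% in the lowest mouse, 93.7% in the median and 96.0% in the highest, with a log2 ratio of 3.72 and an SE of 0.17. The lowest share was that of replicate 1, with most Prkcd. Gucy2g, a membrane guanylate cyclase that makes cyclic GMP, followed at 3.65, and Pla2g2f, a secreted phospholipase A2, also at 3.65. Fam205c stood at 3.84. Myoc, the secreted glycoprotein myocilin that is known from glaucoma (chromosome 1, 162639155 to 162649693, plus strand), had shares of 89.6%, 92.8% and 95.9% and a log2 ratio of 3.64. Ccl28, a mucosal chemokine, stood at 3.41. Stmn1, stathmin, which destabilises microtubules in growing neurons, reached 4.14 with shares of 94.0% to 95.7%. Only 16.6% of its total count was assigned to a copy and its transcript has 1 near copy among other annotated genes (95% identity over at least 200 bases), and the part of either in the ratio was not tested.

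Dsp, desmoplakin of cell junctions and a marker of dentate granule cells, was the least even of these genes. Its BL6 share was 92.4%, 76.2%, 98.9%, 91.9%, 99.7% and 87.1% in young replicates 1 to 6, with a log2 ratio of 3.65 and an SE of 0.46. The lowest shares were those of replicates 2 and 6, the libraries with most Drd2 and with 75.9 and 59.6 CPM of Prox1. The highest share was that of replicate 5, with the most Prox1 at 195 CPM. Prox1 did not follow the share throughout, with 103, 114 and 129 CPM in replicates 1, 3 and 4. Ttr, a transcript of the choroid plexus, stood at 173, 782, 14.3, 583, 3.76 and 223 CPM in replicates 1 to 6. The part of the dissection in the ratio was not tested. Without replicates 2 and 6 the log2 ratio was 4.95. Bulk RNA cannot tell a gene read from different cell types in different dissections from a gene whose ratio differs within 1 cell type, nor fewer cells of a type from less RNA per cell.

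In favour of CAST the 12 largest differences were smaller, between 2.41 and 2.95 on the log2 scale. Cenps, a kinetochore protein that also acts in DNA repair (chromosome 4, 149127121 to 149137629, minus strand), had a BL6 share of 9.84% in the lowest mouse, 11.4% in the median and 13.1% in the highest, a log2 ratio of -2.95 and an SE of 0.07 (adjusted p in edgeR = 3.8e-13). C3, the central protein of the complement cascade (chromosome 17, 57203970 to 57228136, minus strand), had shares of 9.12%, 12.6% and 19.5%, and a log2 ratio of -2.69. Ccl9, a chemokine of myeloid cells, had 9.46%, 11.2% and 22.2%, and a log2 ratio of -2.70. No mouse came near 50% in any of these genes.

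A pair of the 12 belong to the beating cilium. Rsph1, of the radial spokes (chromosome 17, 31255019 to 31277383, minus strand), had BL6 shares of 12.9% to 17.5% and a log2 ratio of -2.41, and Dnah7a, an inner dynein arm heavy chain, 9.68% to 20.7% and -2.46. Enzymes among the 12 were Sds, serine dehydratase (-2.57, with 29.6% of its exon bases shared with another gene), Hoga1, a mitochondrial aldolase of hydroxyproline breakdown (-2.46), and Nat8f2, an N-acetyltransferase (-2.76). Gstm7, a glutathione S-transferase, stood at -2.88, with 16.6% of its count assigned. Rpl6 of the large ribosomal subunit (-2.95), Mrps33 of the mitochondrial ribosome (-2.65), the centrosome gene Sfi1 (-2.83), Nat8f2 and Dnah7a have between 1 and 4 near copies each.

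**Figure D2:**
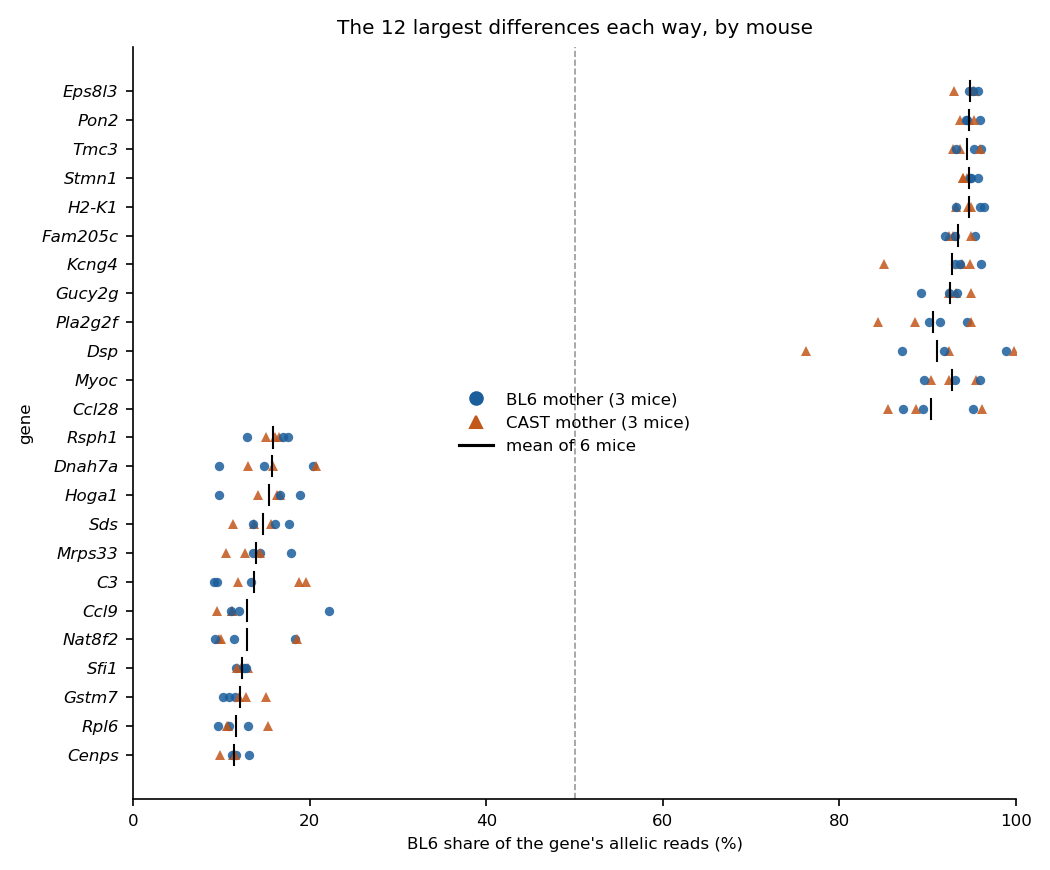
BL6 share of the assigned reads (%, horizontal axis) in each of the 6 young mice for the 12 largest differences each way, with circles for a BL6 mother, triangles for a CAST mother and a black bar for the mean. Every mouse lies on the same side of the dashed line at 50% for each gene, and Dsp has the widest spread, from 76.2% to 99.7%.

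Taken over all levels of expression, the promoters of genes with large differences held TATA boxes by their letters more often and CG less often than the rest. The sequences of the BL6 reference, from RefSeq on GRCm38.p6, were read upstream of the start for the 9534 of 11753 kept genes that were looked up and have an entry. The letters TATAAA, which spell the core of the TATA box that fixes the start of transcription in some tightly regulated genes, were searched on the gene's strand, wholly between 40 and 20 bases before the start. They were found in 16 of 376 genes with a large difference, 4.26% (95% Wilson interval 2.64% to 6.80%), in 1.05% of 5998 called genes under 2-fold and in 0.823% of 3160 genes not called. Of all 32817 promoters of the table, 1.87% held them there. The 5 of the 16 with the largest differences are shown to let the letters be seen, as the 60 bases before the start, with TATAAA in capitals.
Myoc, chr1:162639090-162639149, plus strand: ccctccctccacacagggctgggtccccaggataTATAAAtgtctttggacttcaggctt
Krt20, chr11:99438154-99438213, minus strand: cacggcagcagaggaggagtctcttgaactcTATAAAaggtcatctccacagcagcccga
Krt12, chr11:99422260-99422319, minus strand: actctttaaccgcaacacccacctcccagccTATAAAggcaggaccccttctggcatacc
Snhg8, chr3:123508337-123508396, minus strand: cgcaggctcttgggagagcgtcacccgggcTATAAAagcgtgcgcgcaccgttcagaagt
A2ml1, chr6:128581607-128581666, minus strand: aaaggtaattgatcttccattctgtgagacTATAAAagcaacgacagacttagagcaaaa

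Their log2 ratios were 3.64, 3.56, 2.49, 2.27 and 2.08, all with BL6 ahead. Of the exon bases of Krt12, 54.4% lie within exons of another gene. The other 11 were 7 genes with CAST ahead, among them the embryonic myosin gene Myh3 at -2.01 and the beta-globin gene Hbb-bt at -1.93, and 4 with BL6 ahead. The thyrotropin subunit gene Tshb was 1 of the latter, at 1.95. These genes were listed for their promoter letters and not by size alone. Keratins, myosins, globin and histones are classes in which a TATA box is common, and a match of letters is not a site that was shown to act. In a narrower window, wholly between 35 and 25 bases, the letters were found in 0.532% of large, 0.333% of smaller and 0.253% of uncalled genes. Matches were too few there to tell the sets apart, so no difference is read from that window. The shorter TATA between 40 and 20 bases was found in 6.91%, 2.68% and 2.47%.

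CpG islands are stretches rich in the dinucleotide CG that mark the promoters of most broadly expressed genes. Islands were not called here, but taken over all levels of expression CG was scarcer before genes with large differences. The ratio of observed to expected CG in the 250 bases before the start had a median of 0.504 for large, 0.736 for smaller and 0.727 for uncalled differences. It was above 0.6 in 39.6% (95% Wilson interval 34.8% to 44.7%), 68.8% (67.6% to 70.0%) and 67.5% (65.9% to 69.1%) of these genes. Intervals cover counting error only. Kcng4, described above, and Grin1, the obligate NMDA receptor subunit that lies near balance, show the contrast in the 120 bases before the start, with CG in capitals.
Kcng4, chr8:119635681-119635800, minus strand: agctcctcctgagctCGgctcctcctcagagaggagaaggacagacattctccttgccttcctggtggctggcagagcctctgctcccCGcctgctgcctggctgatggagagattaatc
Grin1, chr2:25319188-25319307, minus strand: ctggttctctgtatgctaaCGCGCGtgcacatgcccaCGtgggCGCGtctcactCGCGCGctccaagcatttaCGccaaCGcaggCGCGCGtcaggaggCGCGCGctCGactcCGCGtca

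Kcng4 holds 2 CG and Grin1 holds 20, and their ratios over 250 bases were 0.182 and 1.26. Grin1 had a BL6 share of 48.0% to 49.4% and a log2 ratio of -0.09. Genes with large differences were also expressed at lower levels (below). The kept genes that were looked up were therefore split by TPM into 4 equal groups. Promoters were matched for at least 80% of each set only in the group second from the top. There the CG ratio was above 0.6 in 56.4% of 39 large (95% Wilson interval 41.0% to 70.7%), 76.3% of smaller and 77.2% of uncalled differences. The other groups missed this rule for some sets, so no conclusion is drawn from them. In the top group the ratio was above 0.6 in 72.7% of 44 large (58.2% to 83.7%), 75.4% of smaller and 74.7% of uncalled differences. In the lowest group these shares were 27.7% of 231 large, 49.6% and 51.1%. In the group above the lowest the median ratio was 0.604, 0.729 and 0.736. TATAAA was found in 10 of 231, 3 of 62, 3 of 39 and 0 of 44 large genes, from the lowest to the top group. The part of the level in these shares was not tested.

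Genes of neurotransmission seldom differed by 2-fold, but they were called about as often as other genes, 68.8% against 66.8% of all kept genes. Over 11 lists of receptors, channels, vesicle proteins, postsynaptic scaffolds and synaptic adhesion proteins, 5 of 279 kept genes had a large difference, 1.79% against 3.99% of all kept genes, and the median absolute log2 ratio was 0.13 against 0.18. None of the 36 ionotropic and metabotropic glutamate receptor and GABA-A receptor genes reached 2-fold. Of these 36, 15 were called with BL6 ahead and 15 with CAST ahead. Together they make 83.3% called, against 66.8% of all kept genes. Among all kept genes BL6 was ahead in a call for 41.5% and CAST for 25.3%. Under TMM the counts for the 36 were 6 and 19. The most unequal was Gabra2, the alpha2 subunit of GABA-A receptors on the axon initial segment (chromosome 5, 70957597 to 71095849), with a BL6 share of 30.3% in the lowest mouse, 34.8% in the median and 38.2% in the highest, a log2 ratio of -0.96 and an SE of 0.06 (adjusted p in edgeR = 6.8e-09). Under TMM and without young replicates 2 and 6 it passed 2-fold, as the only gene of the 36. The AMPA receptor gene Gria4 (-0.40), the NMDA receptor gene Grin2d (0.37) and the metabotropic receptor gene Grm5 (0.35) led their own lists. The abundant subunits Gria1, Gria2, Grin2a and Grin2b, named for their known weight in excitatory transmission and not by size, had log2 ratios of 0.01, 0.07, -0.07 and 0.03.

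Of 72 potassium channel genes, 28 were called with BL6 ahead and 25 with CAST ahead, and under TMM 17 and 32. In the main fit 73.6% of them were called, against 66.8% of all kept genes. A large difference was found for 3. Beside Kcng4 these were Kcnk1, the 2-pore leak channel TWIK-1 (BL6 share 67.0%, 69.1% and 72.7%, log2 ratio 1.17), and Kcnmb4os2, an antisense transcript at the gene of a BK channel subunit (-1.50). Reads of an antisense gene and its partner cannot be told apart here, as the labels do not say how strand was treated when reads were counted. Cacng5, a transmembrane AMPA receptor regulatory protein, was the 1 large difference among 20 calcium channel genes (28.0% to 36.2% BL6, -1.07), and under 2-fold without replicates 2 and 6. None of 10 sodium channel genes was large, and Scn3b, a beta subunit, led with -0.36. Cplx3, a complexin of ribbon synapses and subplate neurons, was the 1 large difference of 47 vesicle genes, at 1.53 with BL6 shares of 67.3% to 87.6%. None of 20 postsynaptic scaffold genes was large (Baiap2 led with 0.24), nor any of 36 receptors for serotonin, dopamine, noradrenaline, acetylcholine and opioids, where the adenosine receptor gene Adora2b, which the list also holds, led with -0.88.

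Wiring and adhesion genes were alike in this. Of 38 synaptic adhesion genes, 25 cadherins outside the clusters and 66 genes of ephrins, semaphorins, netrins and slits, none reached 2-fold, led by Cntnap3 at 0.82, Cdh24 at -0.69 and Efna1 at -0.80. The clustered protocadherins, which give single neurons distinct surface identities, had 3 large differences among 48, all with CAST ahead and all at 1 end of the beta cluster on chromosome 18. Pcdhb4 had a BL6 share of 22.4% to 32.0% (-1.33), Pcdhb5 24.0% to 29.0% (-1.52) and Pcdhb6 21.7% to 30.2% (-1.43). Of the whole list, 11 were called with BL6 and 20 with CAST ahead, under TMM 8 and 26, and without replicates 2 and 6 it was 12 and 13. Of all kept genes 41.5% were called with BL6 ahead and 25.3% with CAST ahead.

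Neuropeptides had 3 large differences among 22 genes, 13.6%, and in each the CAST copy was ahead. Scg5, the chaperone 7B2 of prohormone convertase 2 (chromosome 2, 113776362 to 113829121), was the deepest covered, with a mean of 15159 assigned reads per mouse and BL6 shares of 24.0%, 26.6% and 27.8% in the lowest, median and highest mouse, for a log2 ratio of -1.49 with an SE of 0.03. Cort, cortistatin of interneurons, stood at -1.91 with shares of 16.9% to 33.6%, and Nts, neurotensin, at -1.10. Over the list, 8 genes were called with BL6 ahead and 6 with CAST ahead, and under TMM 7 and 8. In the main fit 63.6% of the list was called, against 66.8% of all kept genes. None of 20 immediate early genes was large, and Dusp1, a phosphatase of the MAP kinase pathway, led with 0.57.

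Over 6 lists of cell type markers, 5 of 109 genes had a large difference, 4.59% against 3.99% of all kept genes, and the median absolute log2 ratio was 0.21 against 0.18. Of 16 markers of CA and dentate neurons, Dsp and Lct were large, Lct with BL6 shares of 29.7% to 34.2% and -1.15. No interneuron gene of 15 (Ndnf led with 0.73), astrocyte gene of 18 (Aldoc, 0.48) or myelin gene of 21 (Qdpr, 0.46) reached 2-fold. Among 19 microglial genes Fcrls, an Fc receptor-like protein of resident microglia, was large with CAST ahead (28.9% to 34.8% BL6, -1.09). The list had 12 genes called with BL6 ahead and 2 with CAST ahead, under TMM 11 and 3, and a median absolute log2 ratio of 0.37. In the main fit 73.7% of it was called, against 66.8% of all kept genes, where BL6 was ahead for 41.5% and CAST for 25.3%. Among 20 endothelial and mural genes Rgs5 of pericytes (66.7% to 73.4%, 1.26) and Ly6a, the antigen Sca-1 (66.9% to 74.0%, 1.24), were large, both with BL6 ahead. An allelic share does not count cells, since both copies lie in the same cells.

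Immune genes differed more. Over MHC, interferon-stimulated and complement genes, 6 of 74 had a large difference, 8.11%, with 3 each way, and the median absolute log2 ratio was 0.31. Under TMM 3 favoured BL6 and 6 favoured CAST. Of 15 MHC genes H2-K1 and the nonclassical class I gene H2-T24 (67.7% to 78.0% BL6, 1.44) were large, both with BL6 ahead. The called MHC genes were split with 5 each way. They make 66.7% called, against 66.8% of all kept genes, where BL6 was ahead for 41.5% and CAST for 25.3%. Of 17 complement genes, C3 (above) and C4a (26.0% to 32.1% BL6, -1.39, with 1 near copy) favoured CAST, and Cd59a, which blocks the membrane attack complex, favoured BL6 (64.2% to 82.4%, 1.60). Of 42 interferon-stimulated genes, 1 was large, the guanylate-binding protein gene Gbp3 (28.4% to 34.4% BL6, -1.14). That is 2.38% of this list, under the share of all kept genes, against 13.3% of the MHC and 17.6% of the complement genes. The median absolute log2 ratio of the interferon-stimulated genes was 0.33. MHC genes vary much in sequence between strains, and whether their reads from CAST align as well as those from BL6 was not tested.

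Enzymes of metabolism and detoxification also stood above the background. Of 77 genes, 8 were large, 10.4%, with 4 each way, and the median absolute log2 ratio was 0.33. Called with BL6 ahead were 41 and with CAST ahead 17, and under TMM 31 and 22. In the main fit 75.3% of the 77 were called, against 66.8% of all kept genes, where BL6 was ahead for 41.5% and CAST for 25.3%. Gsta4, a glutathione transferase that clears lipid aldehydes, had BL6 shares of 73.2%, 78.9% and 82.9% in the lowest, median and highest mouse and a log2 ratio of 1.84. Among 23 cytochromes P450, Cyp4f14 favoured BL6 (82.4% to 87.3%, 2.43), and Cyp2j12 (13.5% to 22.9%, -2.26) and the antisense transcript Cyp4x1os (-1.28) favoured CAST. Of the dehydrogenases, Aldh1a1, which makes retinoic acid, stood at 1.18 and Aldh3a1 at -1.33. The latter was uneven, with BL6 shares of 34.8%, 17.6%, 34.6%, 26.2%, 38.1% and 13.8% in replicates 1 to 6, lowest in the mice with most Drd2, and it was under 2-fold without them. Pmvk, a kinase of the mevalonate pathway, was the 1 large difference of 21 cholesterol synthesis genes (67.2% to 71.9% BL6, 1.18).

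Cytosolic ribosomal protein genes stood furthest from balance of the 50 lists. Of 54 kept genes, 18 had a large difference, 33.3%, with 9 each way, and the median absolute log2 ratio was 0.60. Rpl28 had BL6 shares of 16.6% to 21.2% (-2.13), Rplp0 69.3% to 71.6% (1.27) and Rpl19 28.4% to 32.4% (-1.18). Of these 54 genes 44 have a near copy, in a family known for its many processed pseudogenes, and 15 of the 18 large differences were among the 44. Of the 10 without a near copy 3 were large. Reads that match a gene and its pseudogene can be placed at either, and what this contributes here was not tested.

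Other housekeeping machinery lay nearer the background. None of 41 proteasome, 46 translation factor, 44 lysosomal, 44 Rab GTPase, 20 circadian clock or 19 DNA methylation genes was large. The leading members were Psma5 (0.74), Eef1akmt1 (0.65), Ctss (0.71), Rab32 (-0.83), Hlf (-0.24) and Mbd3 (-0.73). Of 70 mitochondrial ribosomal genes, Mrpl41 (1.24, with 1 near copy) and Mrpl43 (1.16, with 33.4% of its exon bases shared) favoured BL6 and 2 favoured CAST, among them Mrps33. Of 53 genes of oxidative phosphorylation, the ATP synthase genes Atp5e (71.9% to 81.6% BL6, 1.79) and Atp5h (1.01, with 4 near copies) were large, 1 of them under TMM. Hspb8 (1.55) was the 1 large difference of 61 heat shock and chaperonin genes, and Hnrnpa3 (-1.47, with 28 near copies) that of 95 splicing factors. Among 63 motor proteins, Myo7a, the myosin of sensory hair bundles, had BL6 shares of 79.6%, 86.0% and 92.7% and a log2 ratio of 2.61, and Myo18b stood at 1.20.

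Extracellular matrix genes had the next highest share after the ribosomal list. Of 48 collagens and laminins, 9 were large, 18.8%, 6 with BL6 and 3 with CAST ahead, 8 of these 9 without a near copy. Under TMM the split was 4 and 4. Lama2, the laminin chain of brain vessels and muscle (chromosome 10, 26980036 to 27619758), had BL6 shares of 69.1%, 72.0% and 74.0% and a log2 ratio of 1.36, and Col6a4 63.0% to 86.6% and 1.74. Col6a4 also had a called effect of the parent, -0.69 on the log2 scale for the copy from the mother (adjusted p in edgeR = 0.0014). Its BL6 share was 82.2%, 83.9% and 86.6% with a CAST mother, 63.0%, 68.6% and 69.1% with a BL6 mother, and 23.2% to 93.9% in old mice. Of 46 serpins and A disintegrin proteases 4 were large. Serpinb1a, an inhibitor of neutrophil proteases, had shares of 84.8%, 94.0% and 96.7% with a log2 ratio of 3.84 from a mean of 161 assigned reads, and Serpind1 (1.06) and Adam8 (1.32) also favoured BL6.

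Transporters were mixed. Of 249 solute carriers 8 were large (5 BL6 and 3 CAST, 2 and 3 under TMM), led in certainty by Slc5a5, the sodium iodide symporter (77.2% to 82.2% BL6, 2.03), Slc35e1 (16.1% to 24.8%, -1.91, with 10.1% of its count assigned) and the zinc transporter gene Slc39a2 (1.53). Of 36 ABC transporters 3 were large, all with BL6 ahead. Abcb1b, a drug efflux pump, had BL6 shares of 77.5%, 80.6% and 87.0% and a log2 ratio of 2.05, and the adjoining genes Abca8b and Abca8a stood at 1.19 and 1.34.

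Regulatory genes were near the background too. Of 311 genes of the Zfp series, 10 were large, 3.22%, 6 of them with a near copy. Zfp825 stood at 1.68, Zfp932 at -1.41 and Zfp488 at -1.38, with 3, 1 and 77 near copies. Of the 282 without a near copy 4 were large, 1.42%. Of 87 homeobox and other lineage factors, Foxq1 (1.12, with 66.1% of its exon bases shared with another gene) and Tcf19 (-1.30) were large. Of 149 E3 ligase genes 7 were large, among them Rnf7 (1.24), Rnf26 (1.16, with 65.2% of its exon bases shared) and Fbxl7 (-1.68). Rnf7 and Rnf26 have 2 near copies each. Of 58 Wnt, Bmp, Tgfb and Fgf ligands and receptors, Fgf20 (65.6% to 70.4% BL6, 1.13) and the long intergenic RNA Fzd10os (2.43) favoured BL6.

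**Figure D3:**
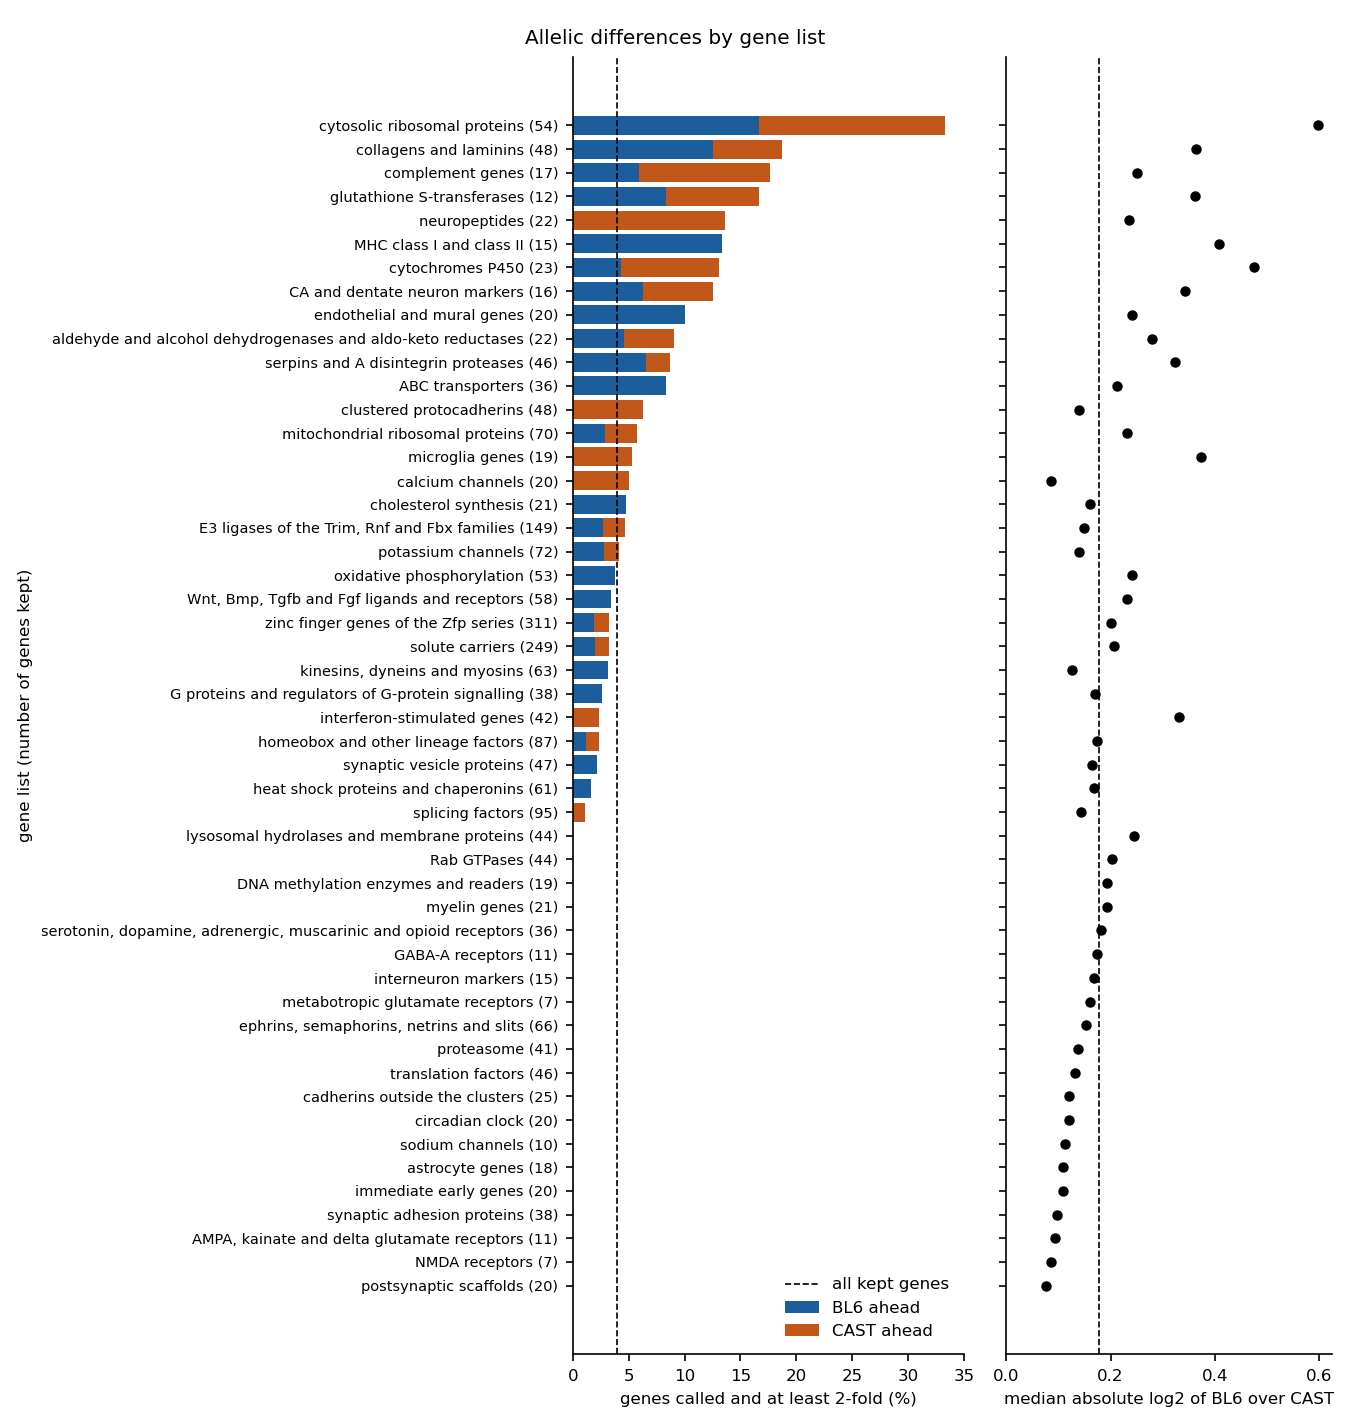
Share of genes called and at least 2-fold (%, left, blue for BL6 ahead and orange for CAST ahead) and median absolute log2 ratio (right) for each of 50 gene lists, with the number of genes kept in parentheses and dashed lines for all 12119 kept genes. The cytosolic ribosomal list and the collagens and laminins have the highest shares, 33.3% and 18.8%, and the glutamate receptor, GABA-A receptor and postsynaptic scaffold lists have none.

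What the genes with large differences shared was looked for in measures that did not choose them. They were lowly expressed, with a median of 3.06 TPM against 12.6 for smaller differences and 9.36 for genes not called. Of the 3030 genes with the lowest TPM, 9.74% were large, of the next 3030 it was 2.84%, of the next 3029 it was 1.49%, and of the 3030 with the highest TPM 1.88%. Among genes with a mean of at least 200 assigned reads, where counting error matters less, split anew by TPM, the shares in the same order were 7.16%, 2.06%, 1.45% and 1.95%.

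The share of a gene's reads that could be assigned also went with large differences. In the 2424 genes with the lowest assigned share, 10.0% to 28.4% of reads, 2.02% were large, and in the 2424 with the highest, 61.8% or more, 8.33%. These groups also differed in level, with a median of 17.8 TPM in the former and 6.10 TPM in the latter. The part of the level in this was not tested. A gene with more differences in sequence between the strains has more assignable reads. Near copies were present for 21.3% of the genes with a large difference, 7.63% of those called under 2-fold and 6.19% of those not called. Without any gene that has a near copy, 380 large differences were left, 232 with BL6 ahead and 148 with CAST ahead. Of the 120 genes with 5 or more near copies 21.7% were large.

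**Figure D4:**
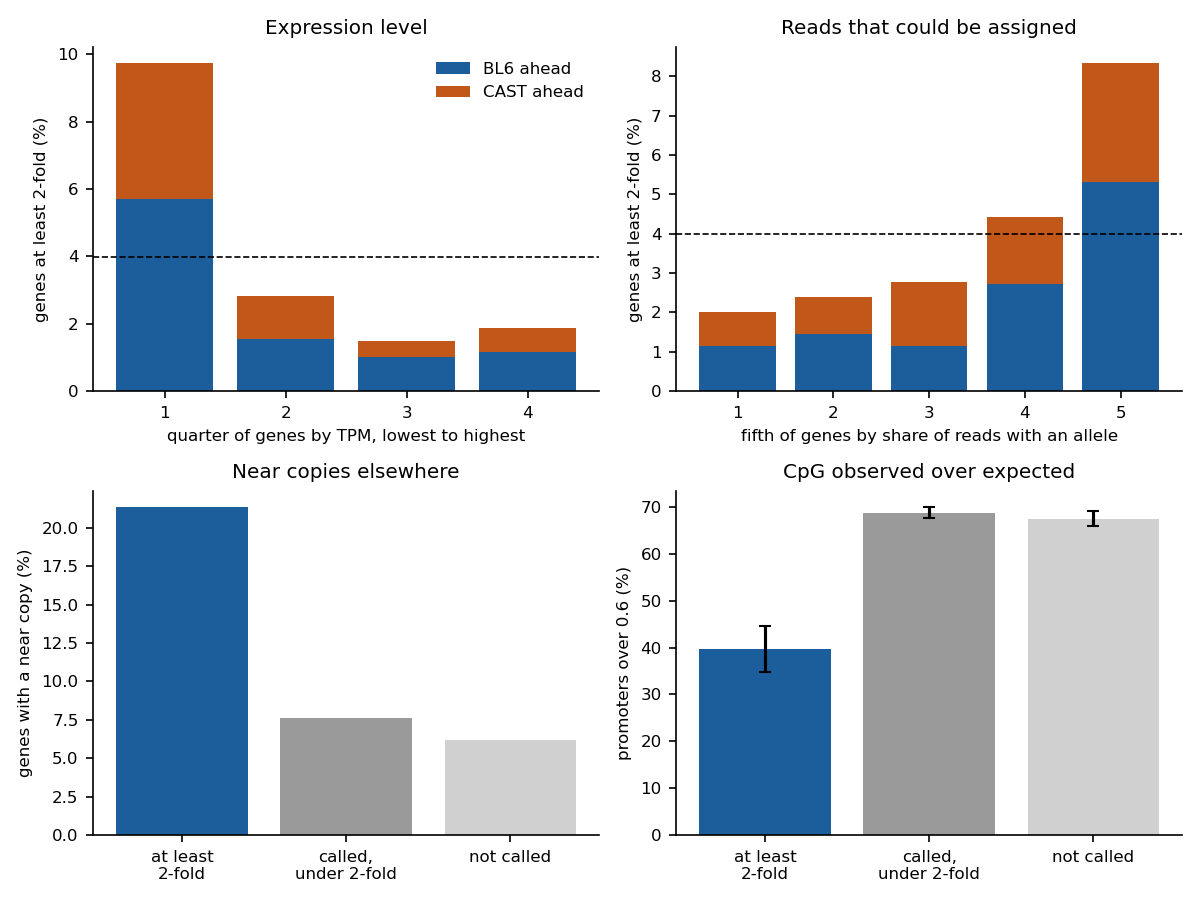
Share of kept genes at least 2-fold (%) by level of expression and by share of reads assigned to a copy (top, dashed line for all kept genes), share of genes with a near copy (bottom left) and share with a CpG ratio above 0.6 before the start (bottom right, bars are 95% Wilson intervals), by size of the difference. Large differences are most frequent at low expression and high assigned share.

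Large differences were at times shared by neighbours. Over the 19 autosomes they were found in 2.22% (chromosome 12) to 5.47% (chromosome 13) of kept genes. In 42 cases a kept gene with a large difference was followed on its chromosome by another, and in 31 of the 42, 73.8%, the same copy was ahead, against 54.4% of all 12100 neighbouring pairs. Pon2 and its paralog Pon3 (1.05) favoured BL6 together, as did the keratin genes Krt12 and Krt20 shown above, and Cort and Cenps, 358 bases apart, favoured CAST together. The alpha-tubulin genes Tuba1a (1.88) and Tuba1b (1.96), with 11 and 10 near copies, lie side by side as well. The N-acetyltransferase genes went opposite ways, with Nat8f5 (-1.49) and Nat8f2 favouring CAST and Nat8f4 (2.42) favouring BL6. Overlapping gene models, such as Ncapd2 and Scarna10 within it, share reads and are not separate cases. Without the 7 pairs that overlap, the same copy was ahead in 24 of 35, 68.6%, against 53.4% of all 10707 pairs that do not overlap. The pairs were listed by position, and the genes named here were chosen after their values were seen.

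The strain differences were then set beside those of the 5 old mice, which had no part in choosing them, although their reads were assigned in the same way. Of the 483 genes with a large difference in young mice, 463 had at least 50 assigned reads in every mouse of both ages. In old mice 61.8% of all 16466 genes tested were called. All 463 had the same copy ahead in old mice, all 463 were called there, and 389 (84.0%) were again at least 2-fold. Their median absolute log2 ratio was 1.34 in young and 1.36 in old mice. Eps8l3 had 3.91, Pon2 4.24, H2-K1 3.86, Cenps -3.01 and Scg5 -1.47 in old mice.

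Few genes differed in their strain effect between the young and the old mice. These were different animals, and age cannot be told apart here from birth cohort or parents. The term of strain by age was called for 30 of 16466 genes, 0.182%, and 1526 had an unadjusted p under 0.05 against 731 in DESeq2, which called 38. The 4 clearest lie side by side on chromosome 12, between 79130777 and 79296304. Vti1b, a SNARE of endosomal fusion, had BL6 shares of 39.4%, 40.4% and 42.7% in the lowest, median and highest young mouse. In old mice the shares were 24.1%, 24.9% and 25.7%. The old minus young difference in the log2 ratio was -1.04, with an SE of 0.04 (adjusted p in edgeR = 1.1e-11). Zfyve26, a protein of lysosome reformation, was even in young mice (50.5% to 52.7%) and at 34.2% to 35.9% in old ones. Rdh11, a retinol dehydrogenase, had 53.7% to 57.5% in young mice and 38.5% to 39.5% in old mice. Arg2, mitochondrial arginase, had 31.8% to 37.2% in young mice and 18.9% to 22.9% in old mice. In none of the 4 did the young and old mice overlap. The gene models of Arg2 and Vti1b overlap, so these are not wholly separate counts.

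Differences the other way were less certain. Pcdhb5 was nearer to balance in old mice (31.9% to 36.3% BL6, against 24.0% to 29.0% in young mice, edgeR adjusted p = 0.0043). Ryr3, an intracellular calcium release channel, had 49.1% to 50.8% in young mice and 51.3% to 59.3% in old mice. Abca8a had 80.3% and 82.2% in young replicates 1 and 2, 66.3% to 68.2% in the other 4 young mice and 80.4% to 86.1% in old mice. Replicate 1 is the library with most Prkcd and replicate 2 that with most Drd2, but replicate 6, with Drd2 at 64.1 CPM, had 67.3%. By their labels replicates 1 and 2 are also the youngest mice. The part of dissection or of this age difference in the ratio was not tested. Ide, the insulin-degrading enzyme, outside the rule for named genes and chosen after its values were seen, had 70.1% in young replicate 2, 51.8% to 55.0% in the other 5 young mice and 69.7% to 71.4% in the old mice. For Abca8a and Ide some young mice thus held the share of the old ones, while for Pcdhb5 and Ryr3 the young and old mice did not overlap. The count of 30 was not stable: it was 87 without young replicate 4, 127 without young replicate 5, 16 without old replicate 3 and 16 without old replicate 4.

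**Figure D5:**
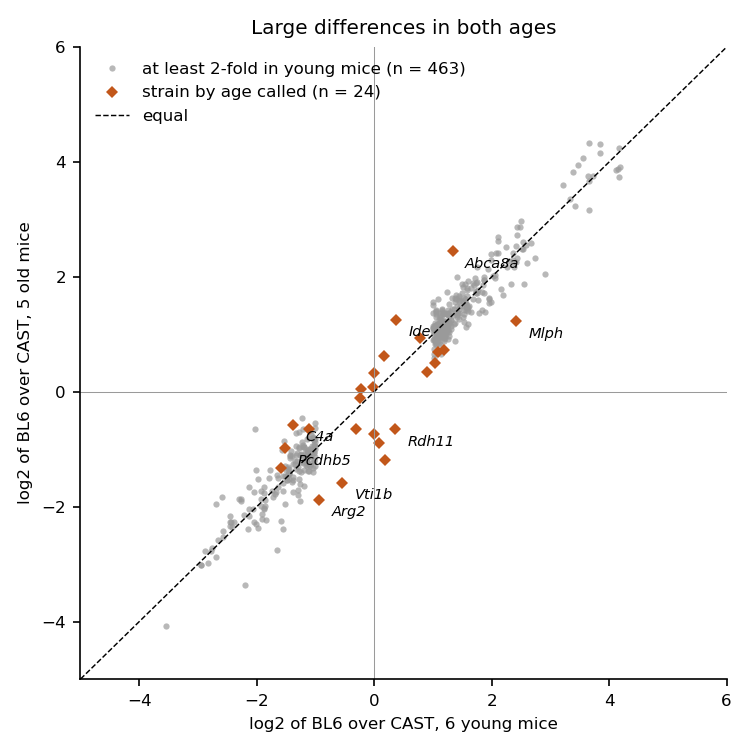
Log2 ratio of BL6 over CAST in the 6 young mice (horizontal axis) and in the 5 old mice (vertical axis) for the 463 kept genes with a large difference in young mice and reads at both ages (gray) and the 24 kept genes whose strain effect by age was called (orange). The gray points lie along the dashed line of equal ratios, and all have the same sign at both ages.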

How the data were processed

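RNA of the hippocampus was sequenced from 11 female F1 mice, 1 library each, polyA-selected and directional. The deposited counts are whole reads per gene, for all reads and for reads assigned by the authors to the BL6 or the CAST copy, and the deposited TPM values are per gene and sample, per the file headers. The submitters' processing notes name bcl2fastq 2.20, Trim Galore 0.6.6, HISAT2 2.1.0, SAMtools 1.10, Subread 2.0.0 and the build GRCm38. How reads were assigned to a copy, with which annotation release and strand setting, is stated neither in the labels nor in those notes.

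Allelic counts of the 6 young mice were fitted with edgeR 4.0.16 (R 4.3.3, limma 3.58.1) by the quasi-likelihood test with terms for mouse, strain of the copy and parent of the copy, and p-values were adjusted by Benjamini-Hochberg over all 17050 genes. Both copies come from the same mouse, so the mouse is the pairing. The library size was the allelic total of the mouse for both of its columns. DESeq2 1.42.0 was an alternative. The term of strain by age used all 11 mice. Nothing in the labels says more of the mice than strain, sex and age, and p-values measure the spread between these animals. Gene models came from GENCODE M21, to which 55141 of 55401 identifiers matched, 792 with another version number. A near copy is another annotated gene, not overlapping it, whose longest transcript matches that of the gene at 95% identity or more over at least 200 bases (blastn 2.17.0), a measure chosen after seeing the data. Promoters are those of RefSeq, looked up outside chromosome 18. Scripts were tested on simulated data.

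The text names the 12 largest kept differences each way with a mean of at least 200 assigned reads and the same copy ahead in all 6 mice, up to 3 large members of each of 50 lists by smallest p or else the called member with the largest difference, and up to 5 genes each way for age. The members and lists were chosen with earlier results of these data known. Alternatives were scaling, read minimum, terms of the model, tool, and each mouse left out. The result of 1 gene is not reported here.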

Additional observations from a re-analysis of the deposited data

Results flagged for a closer look

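In 5 of the 102 named genes 1 young mouse stood apart from the other 5, which is 4.90% where chance gives about 1 in 20. The BL6 share of Kcng4 was 85.0% in replicate 1 and 93.1% to 96.0% in the others. Ccl9 had 22.2% in replicate 4 against 9.46% to 11.9%, and Cort 33.6% in the same mouse against 16.9% to 20.8%. Qdpr had 61.2% in replicate 2 against 56.1% to 58.0%, and C4a 32.1% in replicate 6 against 26.0% to 28.1%.

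The strain difference itself differed between old and young mice, by the term of strain by age, in the 10 genes named for it. Old and young mice were different animals, so age and birth cohort cannot be told apart. The old minus young log2 ratio was 0.54 for Pcdhb5, 0.33 for Ryr3 and 1.13 for Abca8a. It was -1.04 for Vti1b, -0.97 for Zfyve26, -1.01 for Rdh11 and -0.94 for Arg2. Scarna10, a small RNA within Ncapd2, stood at -0.47. The predicted gene Gm10382, at 0.65, and the imprinted gene Mest, at 1.04, belong to the genes kept apart.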

How the results depend on the processing

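Without the replicate block, that is without pairing both copies within a mouse, 2054 genes were called with BL6 ahead and 1056 with CAST ahead, while large differences were 604 and 381. With no read minimum beyond a mean of 1, large differences were 2542 and 1526, and with at least 200 assigned reads in every mouse they were 284 and 157, or 265 of the kept genes, since each tests other genes. TATAAA before large differences stood at 0.532% in the narrower window, against 4.26% in the main one, and TATA at 6.91%. The age term called 17 genes without old replicate 3 and young replicates 2 and 6, and 16 to 127 with 1 mouse left out. The median share was 51.101% to 51.125% with 1 mouse left out, where 5 mice cannot reach a p under 0.0625. Of 1710 values of named genes under the alternatives, 1685 kept direction and call, 25 lost the call and 0 reversed. Of 130 values for age, 123 kept both and 7 lost the call. Depth limits genes with few assigned reads, whose shares vary most.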

Other observations

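Genes of the motile cilium, the beating organelle of ependymal and choroid plexus cells, were looked at after Rsph1 and Dnah7a were seen among the largest differences, so their list was chosen after its values were seen. Of 72 kept genes, 10 had a large difference, 13.9% against 3.99% of all kept genes, 4 with BL6 ahead and 6 with CAST ahead, and the median absolute log2 ratio was 0.32. Of the 65 without a near copy 6 were large. Beside Rsph1 and Dnah7a the CAST copy was ahead for Cfap54 (-2.38), Cfap52 (-1.43), Cfap99 (-1.28) and Dnah11 (-1.02), and the BL6 copy for Ccdc103 (1.35), Dnah7b (1.33), Rsph3b (1.26) and Dnah3 (1.01). Foxj1, the transcription factor that switches on this program, had a log2 ratio of -0.02 and was not called. Ttr, a transcript of the choroid plexus, ranged from 3.76 to 782 CPM among the 6 libraries, and its part in these ratios was not tested.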
